A study of Caenorhabditis elegans with 12 samples.

Results

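The met-2 and set-25 loci carry the mutations that define the mutant strains of this study, and both lie on chromosome III of *Caenorhabditis elegans*. Accessible DNA was measured by ATAC-seq, in which the Tn5 transposase cuts open chromatin and the cut sites are counted. The windows described here are all rows of the count table that overlap an interval of 20001 bp around met-2 or of 25001 bp around set-25, in the coordinates of ce10. There were 17 such windows of 51519 in the table. The 8 at met-2 span III:8368577-8381084, the 9 at set-25 span III:13275359-13299477, and together they belong to 12 genes. Each window runs from 1500 bp upstream to 200 bp downstream of an annotated transcription start site (TSS) and is 1700 bp wide. A pair of windows of R05D3.12 share position and counts, which left 16 distinct sets of counts. All 17 windows passed the filter of at least 1 count, with between 329 and 3081 counts per library.

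The cells were body-wall muscle cells sorted from L3 larvae. The genotypes were the single mutants met-2(n4256) and set-25(n5021), a double mutant that carries both alleles and is named met-2 set-25 in the plots, and WT, the N2 Bristol strain, with 3 libraries each. Per the study's methods, cells were sorted by a muscle-specific RFP reporter (gwIs4) under the myo-3 promoter, whereas the labels name N2 alone. Each gene is represented by 1 mutant allele, and the double mutant shares its alleles with the single mutants. The labels list 3 replicates per genotype, which the study describes as independent biological replicates, whereas the growth protocol in the labels mentions fewer. The p-values measure the spread between these libraries, which may in part be technical.

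Both genes encode SET-domain enzymes that methylate lysine 9 of histone H3 (H3K9). The met-2 product adds the first methyl groups and that of set-25 carries the mark to the trimethylated state. H3K9 methylation marks heterochromatin, where it is bound by chromodomain proteins and is associated with gene silencing. Nuclear Argonaute proteins guided by small RNAs can direct this mark to their targets. The 21U-RNAs are the piRNAs of the worm.

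Column totals ranged between 73007383 and 105547683 counts in met-2, between 68843022 and 78074609 in set-25, between 84807679 and 102572232 in the double mutant and between 50148450 and 79463030 in WT. Counts were scaled to a column total of 1000000 (CPM). All members have the same annotated width, so their CPM needs no scaling by width where the DNA of the window is whole. How well reads map to each window was not examined, so levels compared between windows are a description. The study refers to the set-25 and met-2 mutants as deletions, and whether a member window is whole in the mutants was not tested. The floor of 3 counts corresponds to between 0.0284 and 0.0598 CPM, well below every member. The median over all windows with counts was 18.8 CPM in met-2, 19.01 CPM in set-25, 18.2 CPM in the double mutant and 18.8 CPM in WT. All 12 muscle markers had windows above the upper quartile of WT. They include myo-3, whose promoter also drives the sorting reporter, so its counts may include copies on the reporter. Of the markers of other tissues none was at 0, and the number above the upper quartile was 0 of 6 for intestine, 0 of 6 for germline, 1 of 5 for neurons, 3 of 6 for hypodermis and 3 of 5 for pharynx.

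A single member lost most of its counts, and it did so in both genotypes that carry the set-25 mutation. This is the window of 21ur-12617 (NR_052826), III:13288100-13289799, which lies between 3190 and 4889 bp downstream of the set-25 TSS. The RefSeq annotation (WBcel235) places this piRNA gene inside the set-25 gene, so the window samples the body of set-25 rather than its promoter. Whether it covers exons or introns of set-25 was not determined here.

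At 21ur-12617, the set-25 libraries had 6.06, 5.98 and 6.50 CPM and the WT libraries had 22.9, 21.8 and 23.6 CPM. The double-mutant libraries had 5.51, 5.59 and 5.42 CPM, against 22.7, 22.3 and 23.2 CPM in met-2 libraries. All 6 libraries that carry the set-25 mutation therefore lay below all 6 that do not, with the highest carrier at 6.50 CPM and the lowest non-carrier at 21.8 CPM. The met-2 libraries lay within the range of the WT libraries. Behind these values stand 417, 467 and 485 counts in set-25 and 493, 573 and 460 counts in the double mutant, against 1655, 2354 and 1931 counts in met-2 and 1146, 1732 and 1730 counts in WT.

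The mean CPM of the carriers was 25.7% ± 1.81 of that of the non-carriers (SD over the 6 carriers), that is 5.84 ± 0.412 CPM against 22.7 ± 0.636 CPM (SD, n = 6 each). Relative to WT, 27.2% ± 1.24 of the CPM remained in set-25 and 24.2% ± 0.358 in the double mutant, while met-2 had 99.9% ± 1.94 (SD, n = 3 each).

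**Figure D1:**
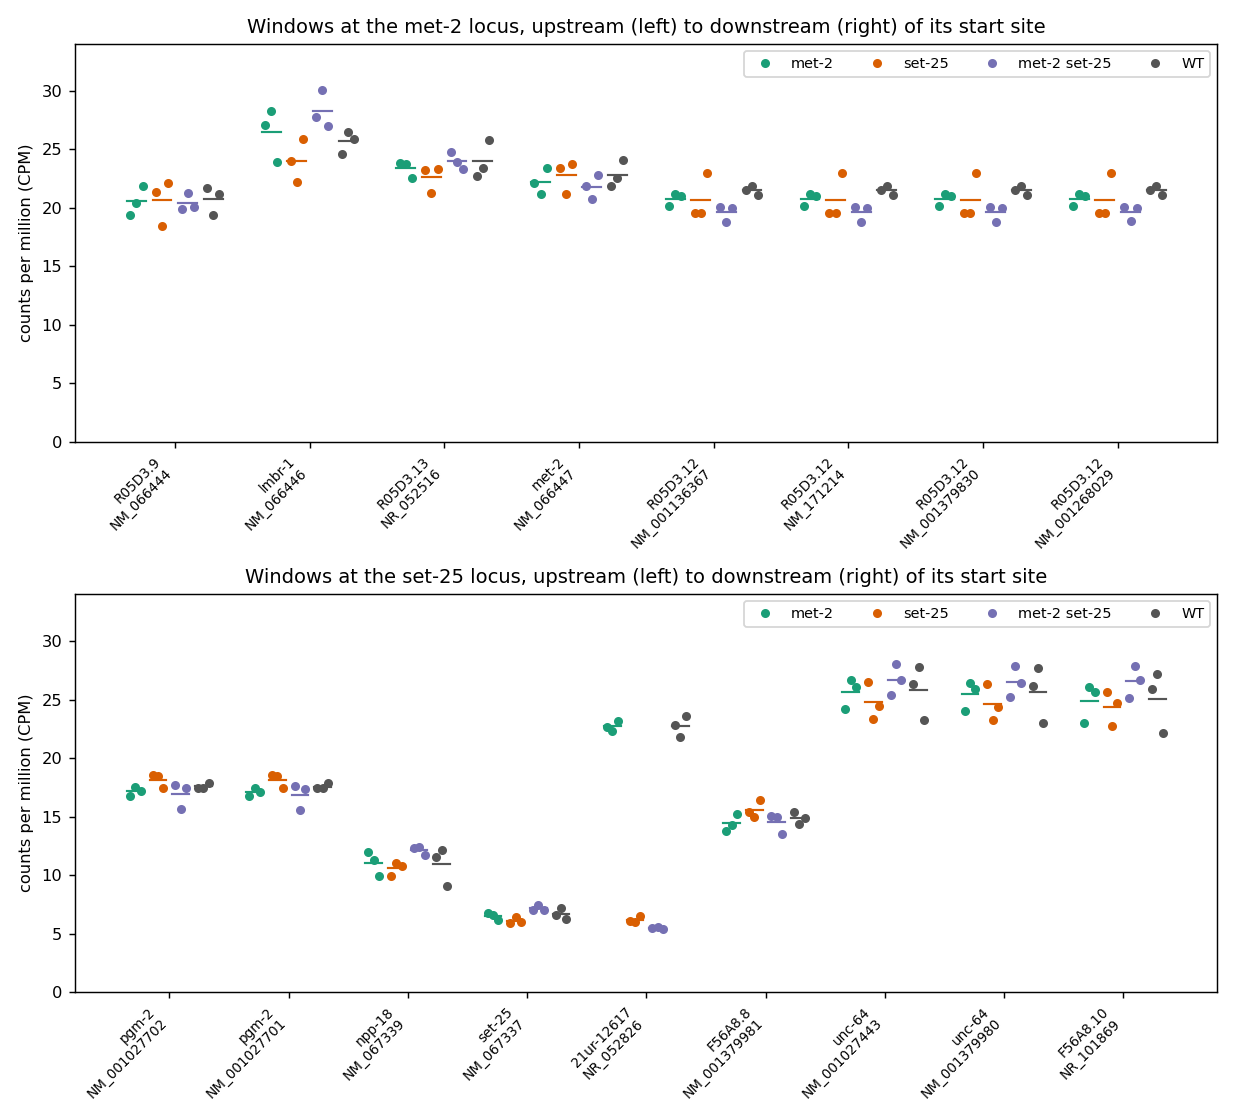
CPM of each of the 12 libraries at the 17 windows (points; short lines are the means of 3 libraries), ordered by distance from the TSS of met-2 (top) or set-25 (bottom), with colours for met-2, set-25, the double mutant and WT. At the window of 21ur-12617, set-25 and the double mutant lie between 5.42 and 6.50 CPM, whereas met-2 and WT lie between 21.8 and 23.6 CPM.

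The difference was tested with edgeR's quasi-likelihood test in a fit of all 12 libraries, with Benjamini-Hochberg adjustment over 51281 windows and a threshold of 0.01 for the false-discovery rate (FDR). The log2 fold change of 21ur-12617 was -1.88 (SE 0.074, adjusted p = 2.95e-30) in set-25 over WT. In the double mutant over WT it was -2.04 (SE 0.073, adjusted p = 1.93e-32), and in the double mutant over met-2 it was also -2.04 (SE 0.072, adjusted p = 6.05e-32). For all carriers over all non-carriers of the set-25 mutation it was -1.96 (SE 0.052, adjusted p = 4.52e-40). An exact two-sided permutation test of the 6 carriers against the 6 non-carriers gave p = 0.00216, which is the smallest value that this design allows. Of the 34 such tests, 2 for each member, this is the one that reached that value.

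Genome-wide, windows called lower made up 0.0156% of those tested in set-25 over WT, 0.731% in the double mutant over WT, 0.0371% in the double mutant over met-2 and 0.0176% for carriers over non-carriers of the set-25 mutation. Among the 17 members, 1 was called lower in each of these contrasts, and it was the window of 21ur-12617 each time. Non-overlap of the 6 carriers below the 6 non-carriers occurred in 0.0858% of all windows and in 1 of the 17 members. In the carriers' contrast no other window of the 51281 had a lower log2 fold change, although 4 had a smaller p-value. These 4 windows overlap almost completely at phkb-1 on chromosome IV and were higher in the carriers, at 4.11 to 4.12. In set-25 over WT, 7 windows had a lower log2 fold change.

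No difference with the met-2 mutation passed the threshold at this window. In met-2 over WT, the log2 fold change of 21ur-12617 was -0.00 (95% interval -0.13 to 0.13, adjusted p = 0.998). In the double mutant over set-25 it was -0.17 (95% interval -0.32 to -0.01, adjusted p = 0.109), and the 3 double-mutant libraries (5.42 to 5.59 CPM) lay below the 3 set-25 libraries (5.98 to 6.50 CPM). This separation in the same direction was seen in 27.6% of all windows in that contrast. The interaction, which asks whether the double mutant departs from the sum of the single mutants on the log scale, was -0.16 (SE 0.10, adjusted p = 0.329).

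No loss was called in the windows on either side of 21ur-12617. F56A8.8 (NM_001379981), III:13284120-13285819, also lies inside set-25 by the RefSeq annotation, between 7170 and 8869 bp downstream of the set-25 TSS. It had 15.4, 14.9 and 16.4 CPM in set-25 and 15.1, 14.96 and 13.5 CPM in the double mutant, against 13.7, 14.3 and 15.2 CPM in met-2 and 15.4, 14.3 and 14.9 CPM in WT. These ranges overlap, and the carriers of the set-25 mutation held 103% ± 6.42 of the CPM of the non-carriers. The log2 fold change was 0.07 in set-25 over WT (95% interval -0.08 to 0.21, adjusted p = 0.831) and -0.03 in the double mutant over WT (95% interval -0.17 to 0.11, adjusted p = 0.795).

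The promoter window of set-25 itself (NM_067337), III:13292790-13294489, was low in all genotypes. It had 5.91, 6.40 and 6.01 CPM in set-25 and 7.04, 7.42 and 7.05 CPM in the double mutant, against 6.79, 6.55 and 6.18 CPM in met-2 and 6.56, 7.16 and 6.23 CPM in WT. Only 0.766% of all windows were lower in set-25, 1.23% in the double mutant, 0.868% in met-2 and 0.928% in WT. The carriers of the set-25 mutation held 101% ± 9.42 of the CPM of the non-carriers. The log2 fold change was -0.12 in set-25 over WT (95% interval -0.29 to 0.04, adjusted p = 0.734) and 0.11 in the double mutant over WT (95% interval -0.05 to 0.26, adjusted p = 0.395).

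In WT, 21ur-12617 ranked above 85.9% of all windows, and in met-2 above 86.6%. In set-25 and the double mutant it ranked above 0.786% and 0.706% of them, against 0.766% and 1.23% for the set-25 promoter in the same genotypes. In the set-25 libraries, 21ur-12617 at 5.98 to 6.50 CPM overlapped the set-25 promoter at 5.91 to 6.40 CPM. In the double mutant, 21ur-12617 at 5.42 to 5.59 CPM lay below the set-25 promoter at 7.04 to 7.42 CPM.

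**Figure D2:**
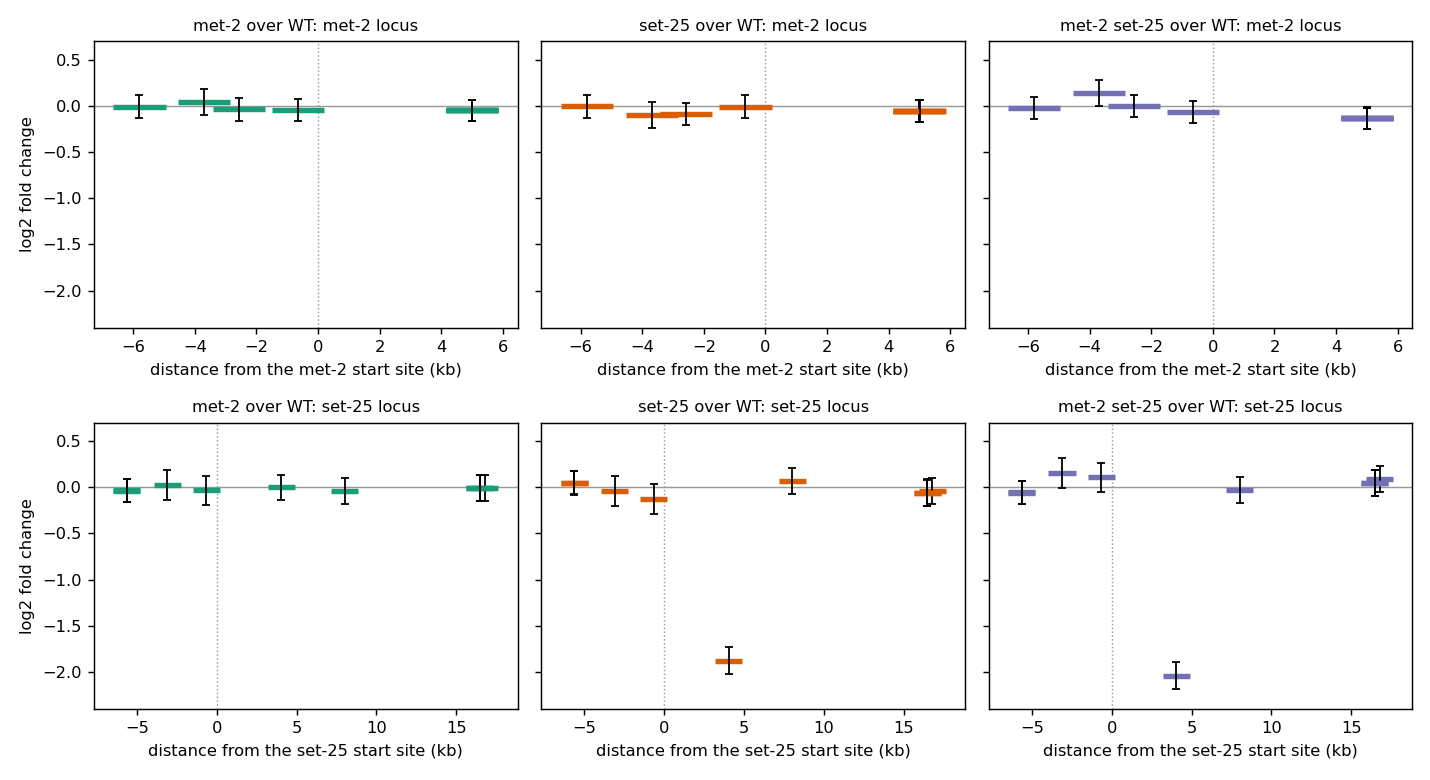
Log2 fold change of each member over WT (coloured bars span the window, black whiskers are 95% intervals) against the distance from the TSS of met-2 (top row) or set-25 (bottom row), in kb. The window of 21ur-12617, 3.19 to 4.89 kb downstream of the set-25 TSS, lies at -1.88 in set-25 and -2.04 in the double mutant, whereas all other intervals shown reach no lower than -0.29.

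At the met-2 locus no window was called lower with the met-2 mutation. The promoter window of met-2 (NM_066447), III:8373728-8375427, had 22.1, 21.2 and 23.4 CPM in met-2 and 21.8, 20.7 and 22.8 CPM in the double mutant, against 23.4, 21.2 and 23.7 CPM in set-25 and 21.8, 22.6 and 24.1 CPM in WT. All 4 genotypes overlapped. The carriers of the met-2 mutation held 96.6% ± 4.38 of the CPM of the non-carriers (SD over 6 carriers), and an exact two-sided permutation test gave p = 0.225. The log2 fold change was -0.04 in met-2 over WT (95% interval -0.16 to 0.08, adjusted p = 0.981) and -0.07 in the double mutant over WT (95% interval -0.19 to 0.05, adjusted p = 0.472). A loss of the size seen at 21ur-12617 lies outside these intervals.

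R05D3.12, the gene that follows met-2, has 4 windows between 4145 and 5856 bp downstream of the met-2 TSS. They overlap almost completely and count the same reads, so they give a single measurement. For NM_171214 the libraries had 20.1, 21.2 and 21.0 CPM in met-2 and 20.1, 18.8 and 20.02 CPM in the double mutant, against 19.6, 19.6 and 22.97 CPM in set-25 and 21.5, 21.9 and 21.1 CPM in WT. The double mutant lay below WT without overlap at all 4 of these windows, a pattern found in 17.0% of all windows in that contrast. The log2 fold change in the double mutant over WT was -0.13 (95% interval -0.25 to -0.02) and was not called (adjusted p = 0.130).

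Upstream of met-2 lie the windows of R05D3.9, lmbr-1 and the non-coding R05D3.13. R05D3.9 (NM_066444) had between 18.5 and 22.1 CPM over the 12 libraries and R05D3.13 (NR_052516) between 21.3 and 25.8 CPM. No genotype stood apart from WT at these 2 windows. At lmbr-1 the double mutant had 27.8, 30.0 and 26.99 CPM and met-2 had 27.1, 28.3 and 23.9 CPM, against 24.0, 22.2 and 25.9 CPM in set-25 and 24.6, 26.5 and 25.9 CPM in WT. The double mutant lay above WT there without overlap, as did 10.5% of all windows in that contrast. The log2 fold change in the double mutant over WT was 0.14 (SE 0.071) and was not called (adjusted p = 0.206).

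The count table leaves gaps in both genes, so that the loss of other stretches could not be observed. No window covers the 3945 bp between 200 and 4144 bp downstream of the met-2 TSS, III:8375428-8379372. At set-25 the same holds for 2990 bp between 200 and 3189 bp downstream of its TSS, and for 2280 bp between 4890 and 7169 bp downstream. Over the whole intervals, windows covered 7938 of 20001 bp at met-2 and 10502 of 25001 bp at set-25. The met-2 windows therefore do not check the genotype labels of the met-2 libraries, whereas all 12 libraries fell on the side of the set-25 label that 21ur-12617 separates. The positions of the lesions are not given in the sources used here.

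The other 16 members varied little between genotypes. In met-2 over WT 0 of 17 members were called by edgeR, 0 had an unadjusted p under 0.05 (5.26% of all windows did) and 0 were called by DESeq2. Windows called higher and lower made up 0.0702% and 0.0312% of all windows in that contrast. The log2 fold changes of the 16 members other than 21ur-12617 ranged between -0.05 and 0.04 in met-2 over WT, between -0.12 and 0.07 in set-25 over WT and between -0.13 and 0.16 in the double mutant over WT. Their medians were -0.04, -0.05 and -0.03 in the same order, and the medians of all windows were -0.00, 0.01 and -0.04. In the contrast of all carriers over non-carriers of the set-25 mutation, the 16 members lay between -0.07 and 0.05.

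Farther from the set-25 TSS, the members differed in level, and no difference between genotypes was called. The windows of unc-64, which encodes the syntaxin of synaptic vesicle release, and the overlapping window of the non-coding F56A8.10 had between 22.1 and 28.0 CPM. The windows of pgm-2, a phosphoglucomutase gene, had between 15.6 and 18.5 CPM. That of npp-18, a nuclear pore protein, was low, with between 9.08 and 12.4 CPM. Relative to the non-carriers, the carriers of the set-25 mutation held between 95.3% and 104% at the 16 other members, and the carriers of the met-2 mutation held between 94.98% and 110%. Just outside the intervals, cpf-2 averaged 21.2 CPM in set-25 and 21.1 CPM in the double mutant, against 21.3 CPM in met-2 and 20.2 CPM in WT. On the other side of the set-25 interval, Y43F4B.11 averaged 28.6 CPM in set-25 and 26.3 CPM in the double mutant, against 25.4 CPM in met-2 and 26.9 CPM in WT. Of the windows next to the met-2 interval, NM_001382939 averaged 19.03 CPM in met-2 and 18.7 CPM in the double mutant, against 21.4 CPM in set-25 and 20.05 CPM in WT. On the other side, ZK353.4 averaged 19.5 CPM in met-2 and 19.1 CPM in the double mutant, against 19.4 CPM in set-25 and 19.1 CPM in WT.

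**Figure D3:**
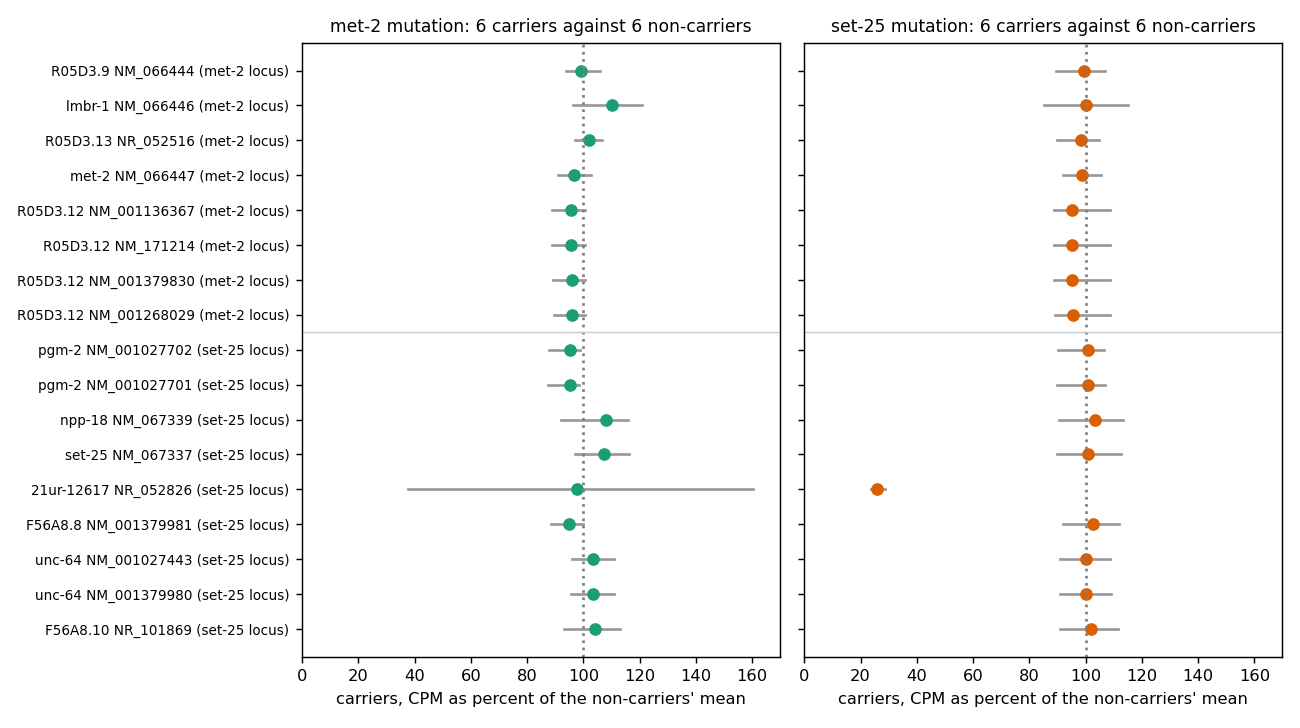
Mean CPM of the 6 carriers of the met-2 mutation (left) or the set-25 mutation (right) as a percentage of the mean of the 6 non-carriers, for the 17 windows (points), with the range of the single carriers (grey lines). The window of 21ur-12617 stands at 25.7% for the set-25 mutation. Its wide range for the met-2 mutation, between 37.5% and 160%, reflects that carriers of met-2 include the double mutant.

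Among the contrasts between a pair of genotypes, the largest log2 fold changes of the 16 members other than 21ur-12617 were in the double mutant over set-25. No member was called there by edgeR, and DESeq2 called 2 higher. Besides 21ur-12617, 3 members had an unadjusted p under 0.05, as did 39.3% of all windows. Of all windows in this contrast, edgeR called 7.64% higher and 3.77% lower, and DESeq2 called 10.9% higher. The window of lmbr-1 (NM_066446), III:8370683-8372382, had the largest log2 fold change in the double mutant over set-25 among the members, without overlap of the libraries. It was 0.24 (SE 0.071, adjusted p = 0.0121). The set-25 promoter also lay above without overlap, at 0.23 (SE 0.078, adjusted p = 0.0252), as did npp-18 at 0.20 (SE 0.080, adjusted p = 0.0628) and R05D3.13 at 0.09 (SE 0.060, adjusted p = 0.272). Of all windows, 7700 of 51281 (15%) separated in that direction, as did these 4 of the 17 members. The largest interaction among these 16 members was that of the set-25 promoter, at 0.27 (SE 0.11, adjusted p = 0.137), and it was not called.

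The lmbr-1 call depended on the fit, and it passed the threshold when met-2 replicate 3, set-25 replicate 3 or WT replicate 2 was left out, when between 5.45% and 8.65% of all windows were called higher. With factors from the trimmed mean of M-values (TMM), under which 9.41% of all windows were called higher, it was called, at 0.28 (SE 0.077, adjusted p = 0.00679), as was the set-25 promoter at 0.27 (SE 0.077, adjusted p = 0.00833). The signal index is the share of counts in 2227 of 44541 windows outside chromosome X, those with the highest mean CPM in the set-25 libraries. The windows with the most counts of all were left out. The index, so defined by the set-25 libraries, differed between the genotypes in the same direction. It was 10.1%, 11.3% and 10.4% in the double mutant and 9.12%, 9.15% and 9.12% in set-25. Since the index did not overlap between these genotypes and was taken from the same counts, index and genotype cannot be told apart in this contrast. With the index as a covariate, only 0.0215% of all windows were called higher in the double mutant over set-25, and the log2 fold changes were 0.03 for lmbr-1 (SE 0.083), 0.06 for the set-25 promoter (SE 0.13) and -0.07 for npp-18 (SE 0.12). These values therefore say nothing particular about the members. That covariate left 21ur-12617 at -1.90 in set-25 over WT (SE 0.072) and at -1.99 in the double mutant over WT (SE 0.094). The windows of lmbr-1 and npp-18 were chosen for this description after their values were seen.

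**Figure D4:**
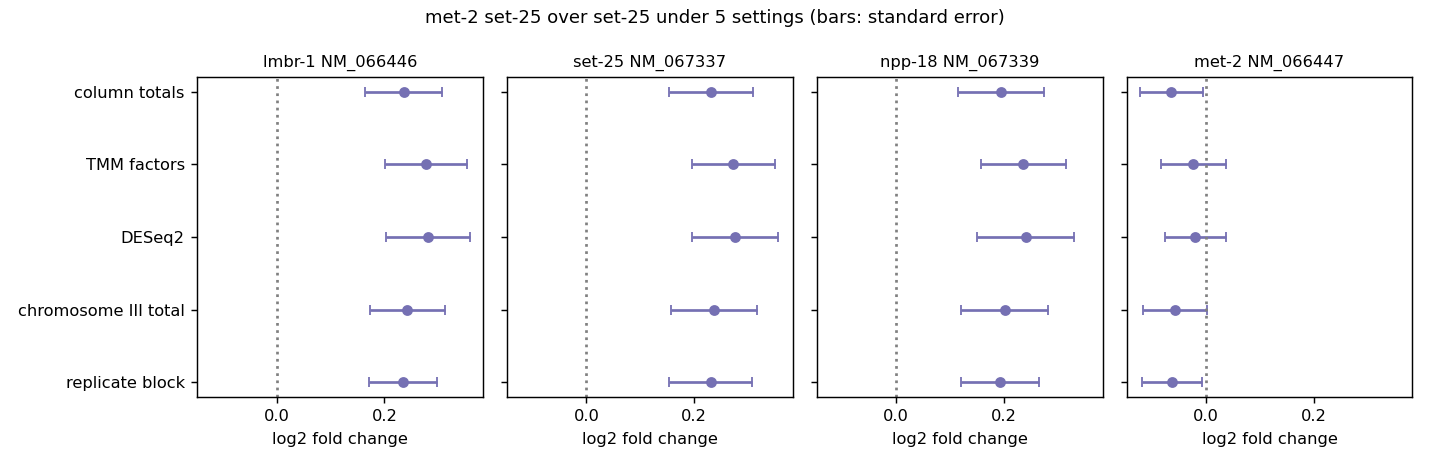
Log2 fold change of the double mutant over set-25 at 4 member windows under 5 settings (points, with bars for the standard error). Over these settings lmbr-1 lies between 0.23 and 0.28 and the set-25 promoter likewise, npp-18 lies between 0.19 and 0.24, and the met-2 promoter lies between -0.06 and -0.02. The fit with the signal index is not drawn.

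The promoters of other genes listed for the H3K9 methylation pathway were examined in the same contrasts, and the 26 genes listed had 40 windows. The list was broad. It held methyltransferases, partners of MET-2, chromatin readers and anchors, demethylases and small RNA factors. Among these was mrg-1, whose product the study describes as euchromatic. In met-2 over WT, set-25 over WT, the double mutant over WT and the double mutant over met-2, edgeR called 0 of the 40 windows, and their log2 fold changes lay between -0.19 and 0.26. An unadjusted p under 0.05 was found for 3, 5, 6 and 4 of the 40 in the same order, and for 5.26%, 7.52%, 26.1% and 21.8% of all windows. DESeq2 called lin-13 higher in the double mutant over WT, where it called 5.39% of all windows higher, and 0 in the other contrasts, with no adjusted p for 10 of the 40 windows there and for 22 in the double mutant over met-2. Without met-2 replicate 3, edgeR also called lin-13 higher in the double mutant over WT, when it called 4.69% of all windows higher. Windows called higher made up 0.0117% of all windows in set-25 over WT, 3.44% in the double mutant over WT and 0.367% in the double mutant over met-2. In the double mutant over set-25, 5 windows of 3 genes were called higher and 0 lower, which is 5 of 40 against the 7.64% of all windows. They belonged to lin-13, a zinc-finger protein that acts with the heterochromatin protein HPL-2, to cec-4, a chromodomain protein that anchors methylated H3K9 at the nuclear envelope, and to 3 overlapping windows of the demethylase gene jmjd-1.2. The lin-13 window had a mean of 32.6 ± 1.84 CPM in the double mutant and 24.9 ± 0.581 CPM in set-25 (SD, n = 3 each), a log2 fold change of 0.39 (SE 0.077, adjusted p = 0.000140). Without set-25 replicate 1, set-25 replicate 2 or double-mutant replicate 2 only lin-13 was called, when between 3.69% and 5.20% of all windows were called higher. The median over the 40 windows was 0.01, and -0.06 over all windows.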

How the data were processed

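ATAC-seq of sorted L3 muscle cells was available as a table of counts. The deposited counts are whole numbers that the authors obtained by trimming adaptors, aligning to ce10 with bowtie2, removing duplicates with Picard, shifting reads for the Tn5 offset and counting without regard to strand. How reads with several matches were treated is not given in the sources used here. All 12 columns map to a labelled library, and 0 per-sample columns were left unused. Column totals are sums over windows, not sequencing depth.

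Windows with at least 1 count in all libraries together (51281; 238 were empty) were fitted with edgeR 4.0.16 (glmQLFit, glmQLFTest, two-sided) in R 4.3.3, with column totals as library sizes and no replicate block. Standard errors came from the fold change and the F statistic. Logarithms of CPM used a pseudocount of 0.1 CPM. Gene symbols came from RefSeq (WBcel235), which matched 95.9% of the windows tested, and none of its coordinates are printed. Scripts were tested on simulated counts.

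Named windows are the promoters of met-2 and set-25, 21ur-12617, each member called and its neighbours on each side. The members and gene lists were chosen with earlier results of these data known. Alternatives were TMM factors, DESeq2 1.42.0, the chromosome III total outside both intervals, edgeR's likelihood ratio test, filterByExpr, a replicate block, an FDR of 0.05, a fit without windows that combine intervals or repeat counts, fits of only the genotypes compared, leaving out each library, a pseudocount of 1 CPM and Spearman's rho. The signal index as a covariate was added after seeing the data.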

Additional observations from a re-analysis of the deposited data

How the results depend on the processing

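The call at 21ur-12617 (NR_052826) in set-25 over WT, the double mutant over WT, the double mutant over met-2 and carriers over non-carriers held wherever an adjusted p was given. DESeq2 gave none in the double mutant over WT and the double mutant over met-2 (log2 fold changes of -2.01 in both). The share left in set-25 carriers was between 25.1% and 26.1% with 1 library left out. Member windows called higher in the double mutant over set-25, 0 in the reported fit, were 2 with TMM factors, DESeq2 or an FDR of 0.05, and 1 (lmbr-1) with the chromosome III total, the likelihood ratio test, the replicate block or the compared genotypes alone. Of all windows, between 7.95% and 10.9% were called higher under these settings, against 7.64% in the reported fit. They were 0 to 1 with 1 library left out, and 1 without met-2 replicate 3, set-25 replicate 3 or WT replicate 2. For carriers over non-carriers of met-2 they were 0 to 1 as well, with lmbr-1 called without met-2 replicate 3 (0.17). Of all windows in that contrast, 6.53% were called higher without met-2 replicate 3, against 4.0% in the reported fit. The pathway windows called higher in the double mutant over set-25, 5 in the reported fit, were 0 with the signal index, when only 11 of 51281 windows were called higher, and 1 to 5 with 1 library left out, with 1 without set-25 replicate 1 or 2 or without double-mutant replicate 2. In the double mutant over WT, 1 was called higher and 1 lower at an FDR of 0.05, 1 higher with the replicate block and 0 to 1 higher with 1 library left out (1 without met-2 replicate 3). Of all windows in that contrast, 6.46% were called higher and 3.89% lower at an FDR of 0.05. The share called higher was 5.36% with the replicate block and 4.69% without met-2 replicate 3.

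Signs turned only among uncalled values of the windows named. At 21ur-12617 in met-2 over WT the log2 fold change was 0.00050 with TMM factors, 0.027 with the chromosome III total, 0.0028 with the signal index and -0.033 to 0.026 with 1 library left out. With the signal index the met-2 promoter was at 0.036 in the double mutant over WT, 0.075 in the double mutant over set-25 and 0.021 for carriers over non-carriers of met-2, and the set-25 promoter at -0.019 in the double mutant over WT. F56A8.8 in the double mutant over WT was at 0.0016 with TMM factors, 0.0041 with DESeq2, 0.023 with the signal index and -0.062 to 0.015 with 1 library left out, and in the double mutant over met-2 at -0.023 to 0.059 with 1 library left out. The windows most like 21ur-12617 and the met-2 promoter kept 0 and 1 of 3 under Spearman's rho.

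Replicate numbers were not taken as pairs in the reported fit. The deviations of same-numbered libraries correlated at 0.0909 on average (18 pairs, -0.158 to 0.399). Differently numbered libraries correlated at -0.0463 on average (36 pairs, -0.479 to 0.319). Between met-2, the double mutant and WT, the libraries of replicate 2 correlated at 0.366 to 0.399. A structure shared by replicate number is therefore possible in these genotypes. In the double mutant the replicate block called lmbr-1 over set-25 (0.23, adjusted p = 0.00336) and lin-13 over WT.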

Other observations

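No loss of similar size was seen in the windows around the set-25 locus. Within 500 kb of its TSS, 0 of 286 windows outside the members were called by edgeR in set-25 over WT or for carriers over non-carriers of the set-25 mutation, and the log2 fold changes of the second contrast lay between -0.16 and 0.10. An unadjusted p under 0.05 was found for 15 and 18 of them (7.52% and 6.48% of all windows), and DESeq2 called 0 in both contrasts. In the double mutant over WT, 7 of the 286 were called lower and 1 higher, with log2 fold changes between -0.31 and 0.33, while 0.731% and 3.44% of all windows were. On all of chromosome III, 62 of 4771 windows outside the members were called lower and 117 higher in that contrast. DESeq2 called 9 of the 286 in either direction and gave no adjusted p for 70. Of the 8 other windows called lower for carriers over non-carriers of the set-25 mutation, 6 lay together on chromosome III, between 11773350 and 11782199 (ce10), at the genes immp-1, gbf-1, mdt-21, C24H11.5 and srd-74, with log2 fold changes between -0.56 and -0.45. The remaining pair belonged to irld-45 on chromosome V, at -0.47 and -0.45. Around the met-2 TSS, 0 of 421 windows within 500 kb were called in met-2 over WT by edgeR or DESeq2, and 27 had an unadjusted p under 0.05 (5.26% of all windows did). For carriers over non-carriers of the met-2 mutation, edgeR called 12 of the 421 higher and 10 lower (4.0% and 0.733% of all windows). It called 13 higher and 5 lower in the double mutant over WT (3.44% and 0.731% of all windows). In the double mutant over set-25 it called 25 higher and 31 lower (7.64% and 3.77% of all windows).

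Outside the members, the window whose log2 CPM over the 12 libraries was most like that of 21ur-12617 was Y54G11A.20 on chromosome II (Pearson r = 0.915), followed by T04F3.1 (0.868) and sax-7 (0.859). Y54G11A.20 had means of 13.3 CPM in set-25 and 13.2 CPM in the double mutant, against 14.7 CPM in met-2 and 14.7 CPM in WT, a far smaller difference. The windows most like the met-2 promoter were 21ur-12830 (0.913), mec-14 (0.908) and hot-4 (0.907), all on chromosome III. The 12 libraries share genotypes and scaling, so these values are a description.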
